A study of Arabidopsis thaliana with 14 samples.

Results

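The XTH genes of Arabidopsis thaliana, XTH1 to XTH33, encode the xyloglucan endotransglucosylase/hydrolases, and XTH22 is the gene first named TCH4 (touch 4). The members were taken by their gene identifiers and are 33 of the 32548 genes in both tables. Xyloglucan is a branched polysaccharide that coats and links the cellulose fibres of the growing plant cell wall. XTH enzymes cut a xyloglucan chain and either rejoin the new end to another chain or let water end the reaction, so that the wall can stretch or be rebuilt. Many XTH genes are known to be active in a particular organ, and XTH22 is a classic marker of touch, temperature shock, darkness and brassinosteroid.

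RNA was sequenced as single-end reads of 50 nt from 1 g of whole seedlings aged 11 days, grown on MS plates with 16 h of light at 23 °C and 8 h of darkness at 21 °C. The 14 libraries form 7 groups of 2. The first table holds fve (homozygous for a mutation in FVE, a WD40-repeat protein of chromatin complexes), suvh2/9 (homozygous for mutations in SUVH2 and SUVH9, proteins that bind methylated DNA) and Col-0, replicates 1 and 2. The second table holds pdp1/2/3;rrm1 (homozygous for mutations at PDP1, PDP2, PDP3 and RRM1), pdp1/2/3 (homozygous for those at the 3 PDP genes alone), rrm1 (homozygous for that at RRM1 alone) and another Col-0, replicates 3 and 4. Col-0 is the wild type in both, no source used here names the alleles, and the study's title concerns FVE and RNA-directed DNA methylation. Values are adjusted counts per 1e+06 (CPM), and all differences are on the scale of log2(CPM + 1).

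The library totals of adjusted counts lay between 21259805 and 21722950 in the first table and between 18609045 and 19534578 in the second. A level of 3 counts, used here as the limit that a count of 0 allows, is 0.140 or 0.156 CPM and covers counting error only. FVE was at 15.1 and 15.5 CPM in fve, against 65.8 and 67.2 CPM in Col-0. SUVH9 was at 1.13 and 0.942 CPM in suvh2/9, against 40.7 and 42.8 CPM in Col-0, and SUVH2 was at 7.27 and 7.34 CPM, against 9.49 and 9.42 CPM. The mutated loci of the other 3 groups were not checked here. In rrm1 replicate 1 and pdp1/2/3;rrm1 replicate 1, 72.8% and 90.0% of the low values lay within 0.2 of a whole number, against 99.8% to 100% in the other libraries. The counts that use them, and XTH22, are also given without both. Nothing in the labels tells that the replicates were grown as separate cultures, so each p-value rests on the spread of these libraries alone, which may be technical. No source used here gives the strand of the libraries, so reads from an antisense partner of a gene cannot be told apart from its own. In whole seedlings, fewer cells of a type and less RNA per cell cannot be told apart.

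The members are related enzymes with a shared catalytic core, and the stretch of coding sequence that encodes its centre is shown for the 6 members on which the results turn most. The search found this stretch in 31 of the 33 coding sequences and not in XTH11 and XTH33. A miss means that the pattern searched for did not match, and whether the glutamates are absent there was not examined. Capitals mark the codons of the 2 catalytic glutamates, which in this enzyme family act as nucleophile and as acid and base. The sequences are from the RefSeq annotation of TAIR10.1.
XTH22: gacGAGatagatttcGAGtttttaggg
XTH23: gacGAGattgactttGAGttcttggga
XTH9: aacGAAttcgattttGAGttcttaggg
XTH27: gatGAGatagattttGAGtttcttggt
XTH31: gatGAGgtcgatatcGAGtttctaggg
XTH7: gacGAGcttgattttGAGttcttagga
The pattern searched for requires both glutamates at these places, so the shared position of the capital codons in all 6 was set by the search and is not a result. Identity of the aligned coding sequences between members ran from 45.4% to 89.4%. The closest pair was XTH12 and XTH13 at 89.4%, followed by XTH18 and XTH19 at 87.6%. XTH22 was closest to XTH23 at 79.9%, XTH27 to XTH28 at 77.7% and XTH31 to XTH32 at 64.8%. Reads of 50 nt could still be assigned to 1 member in nearly every place. The share of 50-nt stretches of exon that also occur elsewhere in the genome was 7.82% in XTH21, 1.77% in XTH19, 1.70% in XTH18 and 0.305% in XTH26, and 0 in XTH22, XTH23, XTH9, XTH27, XTH31 and XTH7.

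A few members carried most of the family's RNA, and their order differed between pdp1/2/3 and Col-0. Per kb of exon, which lets genes of different length be compared, XTH22 was the highest member in pdp1/2/3 at 288 ± 29.2 CPM (SD, n = 2), against 10.6 ± 1.54 CPM in the Col-0 of that table, where it was rank 16 of 33. Next in pdp1/2/3 came XTH4, first described as the endoxyloglucan transferase EXGT-A1, at 191 ± 27.4 CPM per kb, then XTH27 at 113 ± 11.0 and XTH7 at 109 ± 4.03, which lay within their spread of each other. For pdp1/2/3;rrm1, XTH4 averaged 174 ± 12.3 CPM per kb and XTH22 167 ± 147, the SD of XTH22 being nearly as large as its mean. In rrm1 the order was XTH4 at 174 ± 19.7, XTH7 at 150 ± 19.5 and XTH31 at 94.5 ± 10.8 CPM per kb, of which XTH4 and XTH7 did not differ beyond their spread. XTH22 was rank 10 in rrm1 at 26.95 ± 16.87 CPM per kb. That rank is loose, since XTH32 at 29.3 and XTH6 at 26.79 CPM per kb lay within its spread.

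In Col-0 of the second table, XTH7 averaged 156 ± 1.27 CPM per kb, XTH4 127 ± 8.91 and XTH31 97.7 ± 1.06 (SD, n = 2). XTH27, known from leaf veins, came next with 50.8 ± 1.48 CPM per kb, ahead of XTH24, first cloned as the meristem gene MERI5, with 42.6 ± 1.69 and XTH28 with 35.3 ± 2.55. The next neighbours in that order, XTH32 at 29.8 ± 3.73 and XTH14 at 29.8 ± 4.26 CPM per kb, lay within their spread of each other. In Col-0 of the first table the 3 highest were the same genes, XTH4 at 180 ± 6.36, XTH7 at 160 ± 0.283 and XTH31 at 149 ± 1.91 CPM per kb. They also led in fve and in suvh2/9, where XTH22 was rank 17 and rank 18.

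**Figure D1:**
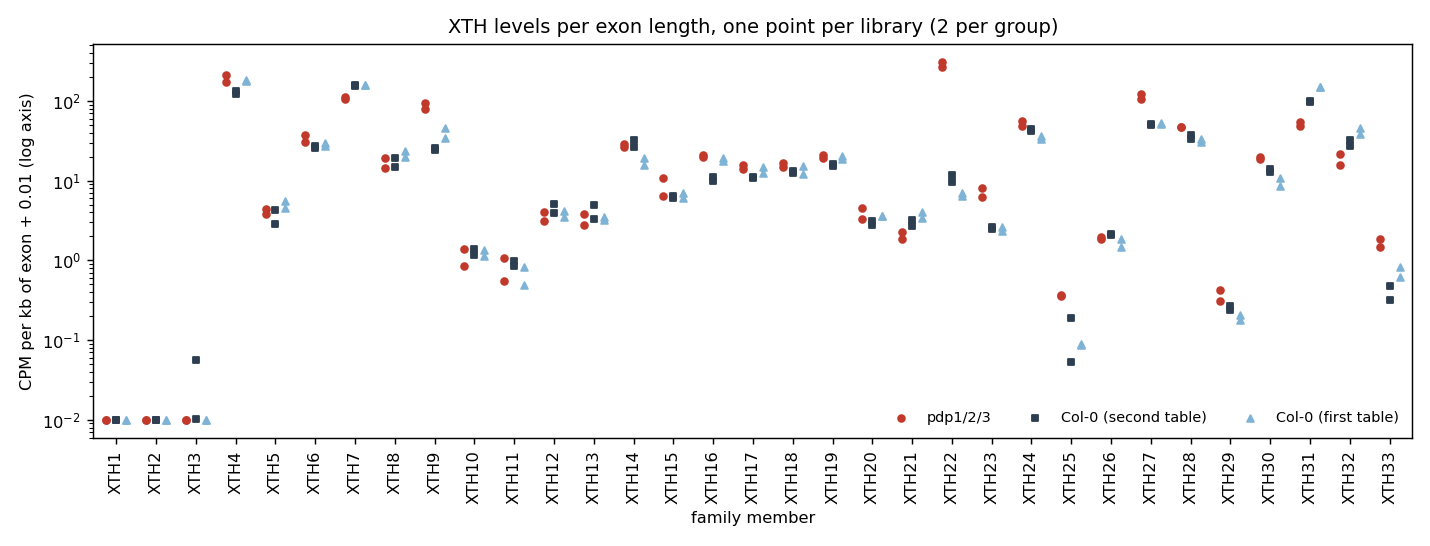
Levels of the 33 members in CPM per kb of exon plus 0.01 (log axis), 1 point per library, 2 libraries each of pdp1/2/3, Col-0 of the second table and Col-0 of the first table. XTH22 averaged 288 CPM per kb in pdp1/2/3, against 10.6 in the Col-0 of the same table, while XTH1, XTH2 and XTH3 sit at the bottom of the axis.

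XTH1, XTH2 and XTH3 were at or below 0.156 CPM in every library, so they were not detectable at this depth. XTH25 and XTH29 were also too low to test. XTH25 read 0.323 and 0.677 CPM in pdp1/2/3;rrm1 and 0.419 and 0.414 CPM in pdp1/2/3, against 0.0508 and 0.211 CPM in Col-0, of which the first Col-0 value lies below the limit of 0.156 CPM. XTH29 read 0.267 and 0.313 CPM in pdp1/2/3;rrm1 and 0.419 and 0.570 CPM in pdp1/2/3, against 0.359 and 0.318 CPM in Col-0. Testing required 1 CPM or more in 2 or more of a table's libraries, which 27 members reached in the first table and 28 in the second, where XTH33 passed through its level in the mutants and was below 1 CPM in both Col-0 libraries. Of the 33 members, 17 were called (limma, Benjamini-Hochberg adjusted p below 0.05) in at least 1 of the 5 comparisons of a mutant with its Col-0, and 16 in none of them. The share of all genes called in at least 1 of the 5 was not computed, so the 17 cannot be set against it. The 17 include XTH33, which was called in pdp1/2/3 alone.

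The 2 sets of Col-0 seedlings differed in level for some members, and these tables were normalised separately, so their values are set side by side with no test. XTH4 read 284 and 298 CPM in Col-0 of the first table and 194 and 215 CPM in Col-0 of the second. XTH31 read 209 and 206 CPM in the first and 137 and 135 CPM in the second. XTH9 read 70.2 and 52.3 CPM in the first and 38.9 and 37.3 CPM in the second, beside 68.8 and 54.4 CPM in rrm1. XTH16 read 23.6 and 21.7 CPM in the first and 12.0 and 13.5 CPM in the second, beside 24.0 and 25.5 CPM in pdp1/2/3. XTH14, known from the root surface, ran the other way, with 18.2 and 22.6 CPM in the first and 38.2 and 31.2 CPM in the second.

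In the fve and suvh2/9 mutants the whole family gave a single call, the lower level of XTH24 in fve. In fve, 1 of the 27 tested members was lower and 0 were higher, where 0.77% of all 19090 tested genes were lower and 1.12% higher. At an unadjusted p below 0.05, limma gave 2 lower and 1 higher member. Here and below, the shares of all genes are for the adjusted threshold, so counts at the unadjusted one have no such share beside them. The median log2 difference of the members was 0.009, beside -0.006 for all genes tested. The member that fell was XTH24, with 28.1 and 27.9 CPM in fve, against 44.5 and 40.6 CPM in Col-0. Both fve libraries lay below both Col-0 libraries, and the log2 difference was -0.58 (SE 0.081, limma adjusted p = 0.0028). This call was lost without Col-0 replicate 1 (adjusted p = 0.0676) and without the filter on low values (adjusted p = 0.208), in a range from 0.000355 to 0.208 over all alternatives. XTH22 read 9.42 and 10.3 CPM in fve, against 11.0 and 10.2 CPM in Col-0, so the groups overlapped.

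In suvh2/9, limma called 0 of the 27 tested members, where 0.571% of all genes tested were called in either direction. At an unadjusted p below 0.05, 4 members were higher and 1 was lower, and the median log2 difference was 0.061, beside -0.001 for all genes. The lower one was again XTH24, at 38.5 and 33.3 CPM in suvh2/9, against 44.5 and 40.6 CPM in Col-0. Its log2 difference of -0.24 was not called (limma adjusted p = 0.479). The smallest p among the members was that of XTH14, which read 36.2 and 27.5 CPM in suvh2/9, against 18.2 and 22.6 CPM in Col-0, a log2 difference of 0.61 (SE 0.137, limma adjusted p = 0.11). The summed level of 20 root markers was 2034 and 1753 CPM in suvh2/9, against 1786 and 1831 CPM in Col-0; limma called 0 of them, with 6 higher and 0 lower at an unadjusted p below 0.05, and their part in the XTH14 value was not tested. XTH22 read 10.8 and 13.7 CPM in suvh2/9, against 11.0 and 10.2 CPM in Col-0. Between the mutants, fve against suvh2/9, limma called 0 of the 27 members, where 2.06% of all genes were called, and at an unadjusted p below 0.05 1 was higher and 6 were lower in fve. XTH24 stood at -0.34 on the log2 scale there (limma adjusted p = 0.0561), so its fall was not shown to differ between the mutants. These 3 comparisons share their libraries, so their values are not independent. With suvh2/9 replicate 2 left out the count was 3 in suvh2/9 against Col-0 and 2 between the mutants, and with suvh2/9 replicate 1 left out it was 1 between the mutants.

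In the mutant at the 3 PDP genes, 14 of the 28 tested members were called. By log2 difference the touch gene XTH22 stood first among those that rose, followed by XTH9, XTH23 and XTH27, and XTH31 was the lowest of those that fell. Of the tested members, 11 were higher in pdp1/2/3 and 3 lower than in Col-0, where 10.8% of all 19241 tested genes were higher and 7.42% lower. The median log2 difference of the tested members was 0.31, beside -0.006 for all genes. By sequence subfamily, taken from the member numbers, 3 of the 8 tested members of XTH1 to XTH11 were higher and 1 was lower. Of the 14 tested members of XTH12 to XTH26, 4 were higher and limma called 0 lower; before adjustment, 8 were higher and 1 was lower at p below 0.05. Of the 6 tested members of XTH27 to XTH33, 4 were higher and 2 were lower. XTH33 is counted among the higher ones but was tested only because its mutant libraries passed 1 CPM. With it left out, a count added after the data were seen, 13 of 27 members were called in pdp1/2/3, 10 higher and 3 lower, with a median of 0.29, and 3 of 5 from XTH27 to XTH33 were higher. Without the filter on low values, which lowers the prior degrees of freedom of the fit to 0.671, the count for the family was 3, and with single libraries left out it ran from 10 to 16.

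In the mutant at RRM1 and the 3 PDP genes 10 members changed, and in the mutant at RRM1 alone 6 did. In pdp1/2/3;rrm1, 7 of the 28 tested members were higher and 3 lower than in Col-0, where 10.7% of all genes were higher and 7.09% lower, and the median log2 difference of the members was 0.17, beside 0.001 for all genes. The count of 10 was 5 without pdp1/2/3;rrm1 replicate 2, 6 without Col-0 replicate 3, 0 without the filter on low values, and 13 with replicate 1 of both rrm1 and pdp1/2/3;rrm1 left out. In rrm1 alone, 6 of the 28 members were higher and 0 were lower than in Col-0, where 2.74% of all genes were higher and 1.29% lower. At an unadjusted p below 0.05, limma gave 11 higher and 0 lower in rrm1, with no share of all genes computed at that threshold. The median log2 difference in rrm1 was 0.24, beside 0.008 for all genes. The rrm1 count of 6 was 0 without Col-0 replicate 3, 1 without Col-0 replicate 4, 1 without rrm1 replicate 1, 3 without rrm1 replicate 2 and 4 with replicate 1 of both rrm1 and pdp1/2/3;rrm1 left out. The 3 mutants of this table share 1 pair of Col-0 libraries, so their calls are given side by side and not as an overlap.

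**Figure D2:**
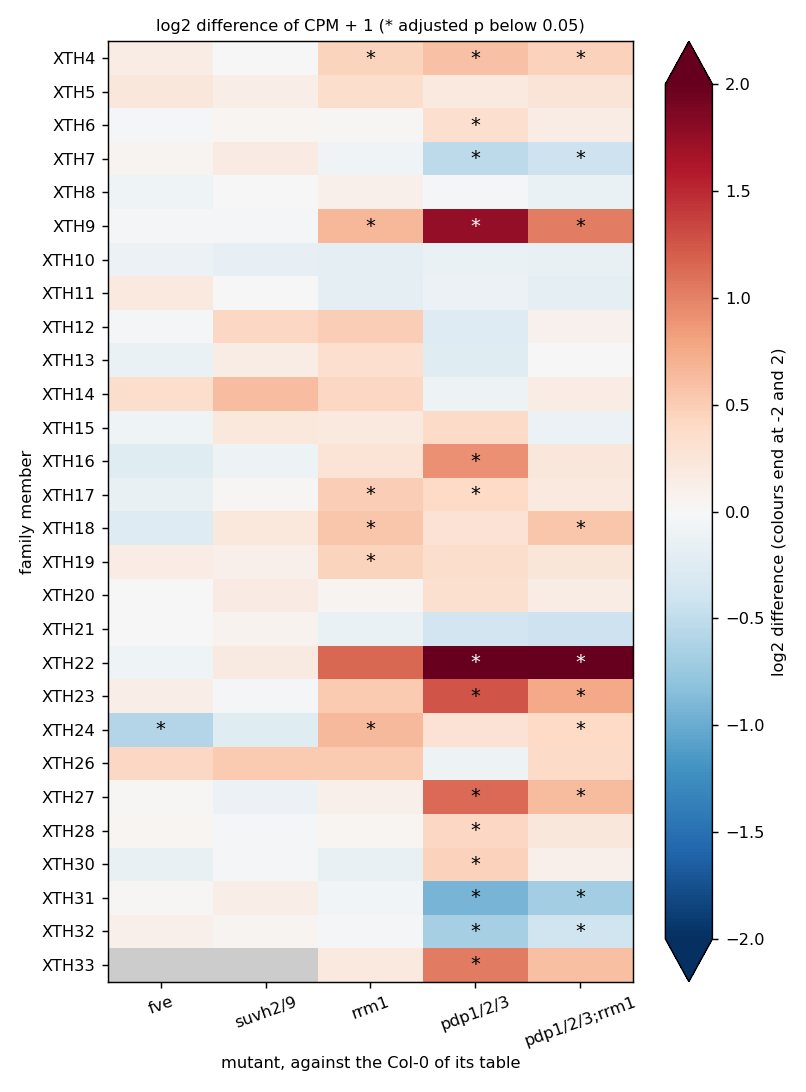
Difference of each tested member on the scale of log2(CPM + 1) in 5 mutants, each against the Col-0 of its table, with red higher and blue lower in the mutant; a star marks an adjusted p below 0.05 and grey a member that was not tested. The pdp1/2/3 column carries 14 stars, led by XTH22 at 4.68, which lies beyond the end of the colour scale.

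Of the 4 members described as induced by outside stimuli (XTH15, XTH22, XTH23 and XTH25), 3 could be tested. Of these, 2 rose in pdp1/2/3, where 10.8% of all genes were higher, and the same number in pdp1/2/3;rrm1, beside 10.7% of all genes. In rrm1 limma called 0, beside 2.74% of all genes higher, and 2 were higher at an unadjusted p below 0.05. XTH22 (AT5G57560) lies at chr5:23307006-23308680 on the minus strand. It read 490.4 and 424.7 CPM in pdp1/2/3, against 15.2 and 18.6 CPM in Col-0. The log2 difference was 4.68 (SE 0.52, limma adjusted p = 7.76e-05), a ratio of mean CPM of 27.1. It read 99.8 and 430.7 CPM in pdp1/2/3;rrm1, a log2 difference from Col-0 of 3.55 (adjusted p = 0.00067). Every library of both mutants lay above both Col-0 libraries, but the pdp1/2/3;rrm1 pair differed by 2.1 on the log2 scale, where the typical SD of such a gap over genes in that group was 0.19. In rrm1, XTH22 read 23.9 and 61.8 CPM, above both Col-0 libraries and 1.34 apart on the log2 scale, and the log2 difference of 1.15 (SE 0.52, adjusted p = 0.259) did not pass. Without pdp1/2/3;rrm1 replicate 1 the log2 difference of XTH22 in that mutant was 4.60, also with rrm1 replicate 1 left out, and without pdp1/2/3;rrm1 replicate 2 it was 2.50. Without the filter on low values XTH22 lost both calls, with adjusted p = 0.0594 in pdp1/2/3 and 0.106 in pdp1/2/3;rrm1, in ranges from 6.81e-09 to 0.0594 and from 6.49e-08 to 0.106 over all alternatives.

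XTH23 (AT4G25810, chr4:13128394-13129927, plus strand), the member closest to XTH22 in sequence, was low but higher in the same mutants. It read 11.2 and 8.49 CPM in pdp1/2/3, against 3.39 and 3.60 CPM in Col-0, a log2 difference of 1.26 (SE 0.209, adjusted p = 0.00128). It read 4.82 and 8.96 CPM in pdp1/2/3;rrm1, and the log2 difference of 0.76 (adjusted p = 0.0258) was lost without pdp1/2/3;rrm1 replicate 2 (adjusted p = 0.23), without Col-0 replicate 3 (0.13) and without Col-0 replicate 4 (0.0904). In rrm1 it read 5.09 and 5.90 CPM, a log2 difference of 0.53 (adjusted p = 0.193) that did not pass. XTH15, known from shade-induced growth, read 7.71 and 12.9 CPM in pdp1/2/3, against 7.28 and 7.63 CPM in Col-0, a difference of 0.38 on the log2 scale that did not pass (adjusted p = 0.158).

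The other genes first named for touch were looked at beside XTH22. TCH3, which encodes a calmodulin-like protein, read 139 and 142 CPM in pdp1/2/3, against 13.7 and 15.4 CPM in Col-0 (log2 difference 3.18, adjusted p = 3.13e-06). TCH2, another calmodulin-like gene, read 96.2 and 62.5 CPM in pdp1/2/3, against 14.5 and 16.0 CPM in Col-0 (log2 difference 2.28, adjusted p = 1.82e-05). Both also rose in pdp1/2/3;rrm1, by 2.95 and 2.19, and in rrm1, by 0.95 (adjusted p = 0.0265) and 1.12 (adjusted p = 0.0103). Of all genes, 10.8% were higher in pdp1/2/3, 10.7% in pdp1/2/3;rrm1 and 2.74% in rrm1. TCH1, a calmodulin gene, read 13.0 and 11.6 CPM in pdp1/2/3, against 9.44 and 9.96 CPM in Col-0, a difference of 0.31 on the log2 scale that did not pass (adjusted p = 0.103). In fve and suvh2/9, limma called 0 of these 3 genes. Of all genes, 1.12% were higher and 0.77% lower in fve, and 0.571% were called in suvh2/9. At an unadjusted p below 0.05, 2 of the 3 were higher in suvh2/9.

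XTH22 and XTH23 were higher and XTH31 lower in pdp1/2/3, and the 250 bases before each of these genes are shown from RefSeq TAIR10.1, read 5′ to 3′ on the strand of the gene. They lie at chr5:23308681-23308930 (minus strand) for XTH22, chr4:13128144-13128393 (plus strand) for XTH23 and chr3:16448845-16449094 (minus strand) for XTH31. Capitals mark a match to any of 6 motifs that were searched on both strands, namely CGCGTT as a box bound by the calmodulin-binding CAMTA factors, CGTGTG as another box of that kind, CGTGCG as a further box of that kind, CACGTG as the G-box, TGTCTC as an auxin response element, and AAACCCTA as the telobox.
XTH22: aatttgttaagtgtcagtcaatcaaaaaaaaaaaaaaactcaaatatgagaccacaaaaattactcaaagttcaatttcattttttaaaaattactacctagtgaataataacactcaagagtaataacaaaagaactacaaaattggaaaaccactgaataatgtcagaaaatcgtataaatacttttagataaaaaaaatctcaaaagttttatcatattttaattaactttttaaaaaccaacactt
XTH23: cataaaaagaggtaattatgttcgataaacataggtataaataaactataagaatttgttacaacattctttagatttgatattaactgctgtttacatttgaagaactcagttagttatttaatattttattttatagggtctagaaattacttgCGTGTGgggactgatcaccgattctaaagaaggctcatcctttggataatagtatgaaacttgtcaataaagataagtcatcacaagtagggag
XTH31: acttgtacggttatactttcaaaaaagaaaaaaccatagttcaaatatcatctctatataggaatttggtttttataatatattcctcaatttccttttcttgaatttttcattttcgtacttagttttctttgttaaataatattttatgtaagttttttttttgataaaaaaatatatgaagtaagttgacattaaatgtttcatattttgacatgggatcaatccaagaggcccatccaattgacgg
The window of XTH23 holds 1 match, CGTGTG, and those of XTH22 and XTH31 hold 0 of these letters, which says nothing of whether a factor binds there. Over the 33 members CGTGTG occurs in 4 windows (XTH2, XTH8, XTH23 and XTH25), beside 5.37% of 27443 promoters of protein-coding genes, and CGCGTT in 3 (XTH13, XTH18 and XTH20), beside 2.59%. TGTCTC occurs in those of XTH3 and XTH6, beside 10.9% of all promoters. The G-box CACGTG occurs in 0 of the 33 windows, beside 6.49% of all promoters. The box CGTGCG occurs in 0, beside 1.57%, and the telobox AAACCCTA in 0, beside 4.49%.

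XTH9 and XTH27 also rose in both pdp mutants. XTH9 (AT4G03210), which is abundant at shoot tips, read 120.0 and 142 CPM in pdp1/2/3, against 38.9 and 37.3 CPM in Col-0, a log2 difference of 1.75 (SE 0.155, adjusted p = 1.82e-05). XTH27 (AT2G01850), which is active in leaf veins, read 186 and 162 CPM in pdp1/2/3, against 80.0 and 76.8 CPM in Col-0, a log2 difference of 1.14 (SE 0.115, adjusted p = 4.32e-05). For both genes the pdp1/2/3 libraries stood clear of Col-0. The log2 differences of pdp1/2/3;rrm1 from Col-0 were 1.03 for XTH9 (64.7 and 95.8 CPM, adjusted p = 0.000814) and 0.64 for XTH27 (107 and 141 CPM, adjusted p = 0.00266).

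XTH16 read 24.0 and 25.5 CPM in pdp1/2/3, against 12.0 and 13.5 CPM in Col-0 (log2 difference 0.91, adjusted p = 0.000784). The pdp1/2/3;rrm1 libraries read 12.6 and 17.8 CPM, which overlapped Col-0, and XTH16 was not called there (0.22, adjusted p = 0.31). XTH33, which is unusual in carrying a membrane anchor, read 1.78 and 2.23 CPM in pdp1/2/3, against 0.565 and 0.372 CPM in Col-0 (log2 difference 1.03, adjusted p = 0.00361). XTH33 entered the test through the mutants in which it is high and had to differ, so its call supports nothing, and without the filter on low values it was lost (adjusted p = 0.0805). At these low levels the added 1 CPM makes the log2 difference smaller than the ratio of the levels. XTH4, the highest member per kb in rrm1 and in Col-0 of the first table, read 277 and 340 CPM in pdp1/2/3, against 194 and 215 CPM in Col-0 (log2 difference 0.58, adjusted p = 0.00219), and it also rose in pdp1/2/3;rrm1 by 0.46 (adjusted p = 0.0106), a call lost without pdp1/2/3;rrm1 replicate 2 (0.0934) or Col-0 replicate 3 (0.109). XTH30 (0.47), XTH28 (0.41), XTH17 (0.40) and XTH6 (0.34) rose by less in pdp1/2/3, with limma adjusted p from 0.00326 to 0.0313. XTH6 read 44.2 and 54.9 CPM in pdp1/2/3, against 37.3 and 40.2 CPM in Col-0, so the groups did not overlap, but its call was lost without pdp1/2/3 replicate 2 (adjusted p = 0.247), Col-0 replicate 3 (0.202) or Col-0 replicate 4 (0.0799). XTH17 and XTH30 were lost without pdp1/2/3 replicate 2 (0.117 and 0.0752) or Col-0 replicate 3 (0.107 and 0.115), XTH17 also without Col-0 replicate 4 (0.0664), and XTH28 without Col-0 replicate 3 (0.0558).

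Against this rise, 3 members fell. XTH31 (AT3G44990) and XTH32 (AT2G36870) belong to the branch of the family whose enzymes mainly hydrolyse xyloglucan. XTH31 read 74.8 and 67.1 CPM in pdp1/2/3, against 137 and 135 CPM in Col-0, a log2 difference of -0.93 (SE 0.0934, adjusted p = 4.01e-05). XTH32 read 41.2 and 30.4 CPM in pdp1/2/3, against 62.2 and 52.1 CPM in Col-0 (log2 difference -0.67, adjusted p = 0.00238). XTH7 (AT4G37800), the most abundant member per kb in Col-0 of the second table, read 136 and 144 CPM in pdp1/2/3, against 202 and 200.1 CPM in Col-0 (log2 difference -0.52, adjusted p = 0.00109). In each of the 3, both pdp1/2/3 libraries lay below both Col-0 libraries. The same 3 fell in pdp1/2/3;rrm1, XTH31 by 0.70 (adjusted p = 0.000331), XTH7 by 0.42 (0.00505) and XTH32 by 0.41 (0.0386) on the log2 scale. XTH32 was lost there in 5 of the settings that leave out a library, with adjusted p from 0.0533 to 0.286, and XTH7 without pdp1/2/3;rrm1 replicate 2 (0.0509). In rrm1 alone, XTH31 read 142 and 121 CPM, with Col-0 between them (log2 difference -0.05, adjusted p = 0.813).

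**Figure D3:**
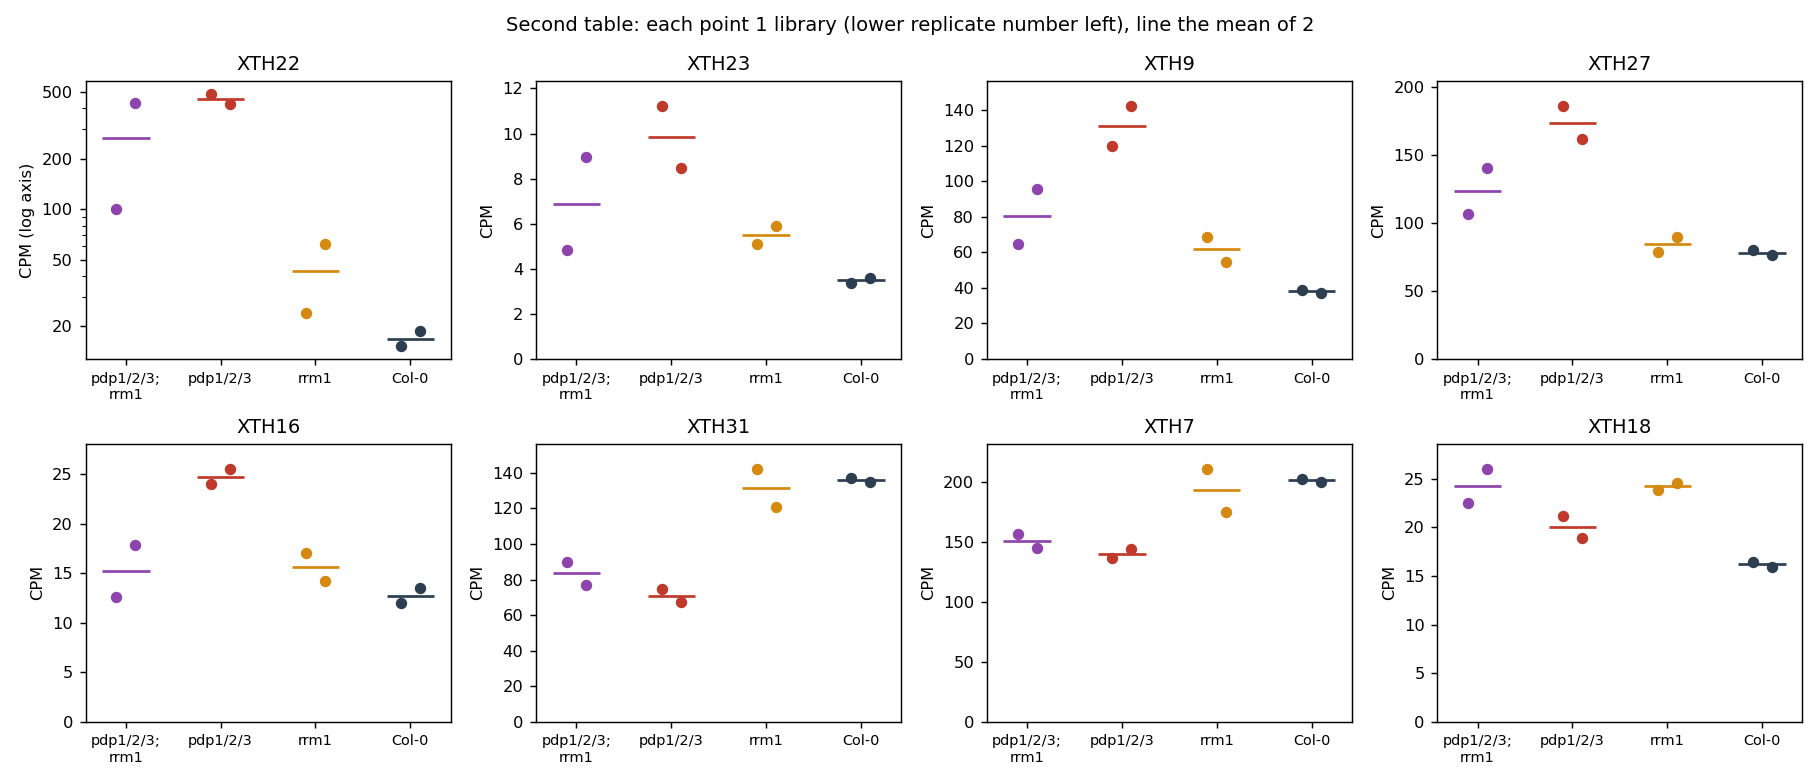
CPM of 8 members in each library of the second table, 1 panel per gene, with points for the 2 libraries of pdp1/2/3;rrm1, pdp1/2/3, rrm1 and Col-0 and a line at their mean; the XTH22 axis is logarithmic and the others start at 0. In the XTH22 panel the pdp1/2/3;rrm1 libraries stand at 99.8 and 430.7 CPM, while XTH31 and XTH7 are lower than Col-0 in both pdp mutants.

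Of the 6 members described as expressed mainly in roots (XTH14, XTH17, XTH18, XTH19, XTH20 and XTH26), 3 rose in rrm1, 1 in pdp1/2/3 and 1 in pdp1/2/3;rrm1, where 2.74%, 10.8% and 10.7% of all genes were higher in the same order. At an unadjusted p below 0.05, limma gave 5, 3 and 1 of the 6 higher, and 0 lower in each of these mutants. No share of all genes was computed at that threshold. Whether the counts differ between the mutants was not tested. They hold for the 6 listed members only, which leave out XTH21, a member also known from root elongation. XTH21 read 2.72 and 2.18 CPM in pdp1/2/3 and 2.46 and 2.24 CPM in pdp1/2/3;rrm1, against 3.80 and 3.18 CPM in Col-0. In rrm1, XTH18 read 23.9 and 24.6 CPM, against 16.5 and 15.9 CPM in Col-0 (log2 difference 0.55, adjusted p = 0.0073). XTH17 read 20.1 and 19.0 CPM in rrm1, against 13.3 and 13.9 CPM in Col-0 (0.49, adjusted p = 0.0187). XTH19 read 28.6 and 28.9 CPM in rrm1, against 21.3 and 20.3 CPM in Col-0 (0.45, adjusted p = 0.0462). The XTH19 call was lost in 9 of 16 alternatives, among them upper-quartile scaling (limma adjusted p = 0.0721) and the filter of 5 CPM (0.0533). That of XTH17 was lost in 7 and that of XTH18 in 4. XTH17, XTH18 and XTH19 are close relatives known from the root elongation zone and root surface. XTH14 read 50.7 and 42.3 CPM in rrm1, against 38.2 and 31.2 CPM in Col-0, and did not pass (0.41, adjusted p = 0.0773). XTH26, known from root hairs, read 5.16 and 3.02 CPM in rrm1, against 2.51 and 2.44 CPM in Col-0, and did not pass (0.52, adjusted p = 0.2).

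The level of general root markers is given beside these members. The summed level of 20 root markers was 2327 and 1991 CPM in rrm1, against 1860 and 1818 CPM in Col-0, and that of 10 green shoot markers was 60980 and 64630 CPM in rrm1, against 66170 and 69390 CPM in Col-0. Of the 20 root markers, 1 was called in rrm1, the root hair expansin gene EXPA7 (log2 difference 0.67, adjusted p = 0.0136), where 2.74% of all genes were higher. Of the 20, 19 were not called, and 8 were higher at an unadjusted p below 0.05, with no share of all genes at that threshold. None of the markers was at 0: the lowest in each rrm1 library was SMB at 0.641 CPM and WOX5 at 1.03 CPM, and 17 and 20 of the 20 were at or above 1 CPM. The part of the root markers in the result was not tested. The root sum was 1718 and 1694 CPM in pdp1/2/3;rrm1 and 1522 and 1708 CPM in pdp1/2/3, below both Col-0 libraries, and the green sums of 66200 and 64820 CPM in pdp1/2/3 and 67980 and 65420 CPM in pdp1/2/3;rrm1 overlapped those of Col-0.

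Outside the root members, XTH24, XTH9 and XTH4 rose in rrm1. XTH24 read 89.6 and 74.5 CPM in rrm1, against 50.1 and 53.0 CPM in Col-0 (log2 difference 0.66, adjusted p = 0.0058), and it also rose in pdp1/2/3;rrm1 (62.4 and 74.5 CPM, 0.40, adjusted p = 0.0211). That second call was lost without pdp1/2/3;rrm1 replicate 2 (0.181), Col-0 replicate 3 (0.143) or Col-0 replicate 4 (0.0707). XTH9 read 68.8 and 54.4 CPM in rrm1, against 38.9 and 37.3 CPM in Col-0 (0.67, adjusted p = 0.0334). XTH4 read 303 and 258 CPM in rrm1, against 194 and 215 CPM in Col-0 (0.45, adjusted p = 0.0343). Col-0 of the first table, not tested against rrm1, read 70.2 and 52.3 CPM for XTH9 and 284 and 298 CPM for XTH4. Each of the 6 calls in rrm1 was lost when Col-0 replicate 3 was left out, with adjusted p from 0.0528 to 0.249. XTH18, which was also higher in pdp1/2/3;rrm1, read 22.5 and 26.0 CPM there (log2 difference 0.55, adjusted p = 0.00162).

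Between the mutants with and without the RRM1 mutation on top of those in PDP genes, 3 members differed. In pdp1/2/3;rrm1 against pdp1/2/3, limma called 0 members higher and 3 lower, where 1.43% of all genes were higher and 1.53% lower; at an unadjusted p below 0.05, 3 were higher and 7 lower. XTH9 read 64.7 and 95.8 CPM in pdp1/2/3;rrm1, against 120.0 and 142 CPM in pdp1/2/3 (log2 difference -0.72, adjusted p = 0.029). XTH16 read 12.6 and 17.8 CPM, against 24.0 and 25.5 CPM (-0.69, adjusted p = 0.0242), and XTH27 read 107 and 141 CPM, against 186 and 162 CPM (-0.50, adjusted p = 0.041). The XTH27 call was lost in 11 of 17 alternatives, among them the filter of 5 CPM (limma adjusted p = 0.0505) and upper-quartile scaling (0.0512). That of XTH9 was lost in 5 and that of XTH16 in 6. For these 3 genes no library of pdp1/2/3;rrm1 reached the level of pdp1/2/3, yet all 3 calls were lost when replicate 1 of pdp1/2/3;rrm1 was left out, with a count of 0, or together with rrm1 replicate 1, also with a count of 0. Without pdp1/2/3;rrm1 replicate 2 the count was 6, and without pdp1/2/3 replicate 2 it was 1. XTH22, with 99.8 and 430.7 CPM in pdp1/2/3;rrm1, against 490.4 and 424.7 CPM in pdp1/2/3, overlapped and was not called (log2 difference -1.13, SE 0.52, adjusted p = 0.315).

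The converse comparison sets the mutant at all 4 genes against rrm1. In pdp1/2/3;rrm1 against rrm1, 2 members were higher and 2 lower, where 5.46% of all genes were higher and 2.5% lower. XTH22 read 99.8 and 430.7 CPM in pdp1/2/3;rrm1, against 23.9 and 61.8 CPM in rrm1 (log2 difference 2.40, adjusted p = 0.0153). XTH27 read 107 and 141 CPM, against 79.1 and 89.7 CPM (0.54, adjusted p = 0.0148). XTH31 read 89.9 and 77.1 CPM in pdp1/2/3;rrm1, against 142 and 121 CPM in rrm1 (-0.65, adjusted p = 0.00143), and XTH7 read 156 and 145 CPM, against 211 and 175 CPM (-0.35, adjusted p = 0.0248). The 2 libraries of each group did not overlap in these 4 genes. The count of 4 was 1 without rrm1 replicate 1 or without pdp1/2/3;rrm1 replicate 2, where XTH31 alone passed, and 4 with replicate 1 of both left out.

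The interaction term asks whether the mutations of rrm1 and pdp1/2/3 together differ from the sum of their separate log2 differences. Here 1 of the 28 members was called, lower than the sum, and 0 were higher, where 0.223% of all genes were lower and 0.078% higher. At an unadjusted p below 0.05, for which no share of all genes was computed, limma gave 12 lower and 0 higher. The called member was XTH9, at -1.39 (SE 0.22, adjusted p = 0.0264), from log2 differences to Col-0 of 1.03 in pdp1/2/3;rrm1, 1.75 in pdp1/2/3 and 0.67 in rrm1. The interaction was -2.28 for XTH22 (SE 0.735, adjusted p = 0.243) and -1.03 for XTH23 (adjusted p = 0.186), and these did not pass. The count of 1 was 7 without pdp1/2/3;rrm1 replicate 2, 5 without pdp1/2/3 replicate 1, 2 with replicate 1 of both rrm1 and pdp1/2/3;rrm1 left out, and 0 without Col-0 replicate 3, Col-0 replicate 4, pdp1/2/3 replicate 2, rrm1 replicate 1 or rrm1 replicate 2.

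The libraries of pdp1/2/3;rrm1 differed from each other along the same members. Of the 11 members higher in pdp1/2/3, 11 were higher in pdp1/2/3;rrm1 replicate 2 than in replicate 1, and of the 3 members lower in pdp1/2/3, 3 were lower in replicate 2. In rrm1, 6 of the 11 were higher in replicate 2 than in replicate 1. The 11 include XTH33. The same counts were not made over all genes, so they do not show a trait particular to the family. The whole family summed to 1717 and 1726 CPM in pdp1/2/3, 1184 and 1627 CPM in pdp1/2/3;rrm1 and 1299 and 1202 CPM in rrm1, against 1053 and 1057 CPM in Col-0. XTH22 alone made up 28.6% and 24.6% of that sum in pdp1/2/3 and 8.43% and 26.5% in pdp1/2/3;rrm1, against 1.44% and 1.76% in Col-0. Without XTH22 the sum was 1226 and 1301 CPM in pdp1/2/3, above the 1037 and 1038 CPM of Col-0 of the same table. It was 1084 and 1196 CPM in pdp1/2/3;rrm1 and 1275 and 1140 CPM in rrm1. Col-0 of the first table, normalised separately and not tested against these, was at 1235 and 1258 CPM without XTH22, near the level of pdp1/2/3. These sums are shares of reads and weigh long transcripts more. In the first table the sum was 1314 and 1266 CPM in fve and 1369 and 1266 CPM in suvh2/9, against 1246 and 1268 CPM in Col-0.

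Several members lie in tandem, and neighbours of a called member were not always called. On chromosome 5, XTH12, XTH13, XTH25 and XTH22 follow each other on the minus strand between 23300321 and 23308680 in TAIR10.1, with 1097, 686 and 565 nt between them. The pdp1/2/3 value of XTH22, 4.68 on the log2 scale, stood beside XTH12 at -0.25 (4.66 and 3.57 CPM in pdp1/2/3, against 5.75 and 4.45 CPM in Col-0, adjusted p = 0.302) and XTH13 at -0.25 (adjusted p = 0.412). XTH25, the nearest neighbour of XTH22, was too low to test. At 0.419 and 0.414 CPM in pdp1/2/3, against 0.0508 and 0.211 CPM in Col-0, its mutant libraries lay above both Col-0 libraries, and in the fit without the filter its log2 difference was 0.33 (adjusted p = 0.305). On chromosome 4, XTH23 lies 363 nt before XTH14, which read 33.4 and 30.7 CPM in pdp1/2/3, against 38.2 and 31.2 CPM in Col-0 (-0.11, adjusted p = 0.594, not called). Also on chromosome 4, XTH24, XTH18 and XTH19 lie in a row with 5161 and 1500 nt between them. All 3 of these were higher in rrm1, with log2 differences of 0.66, 0.55 and 0.45.

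**Figure D4:**
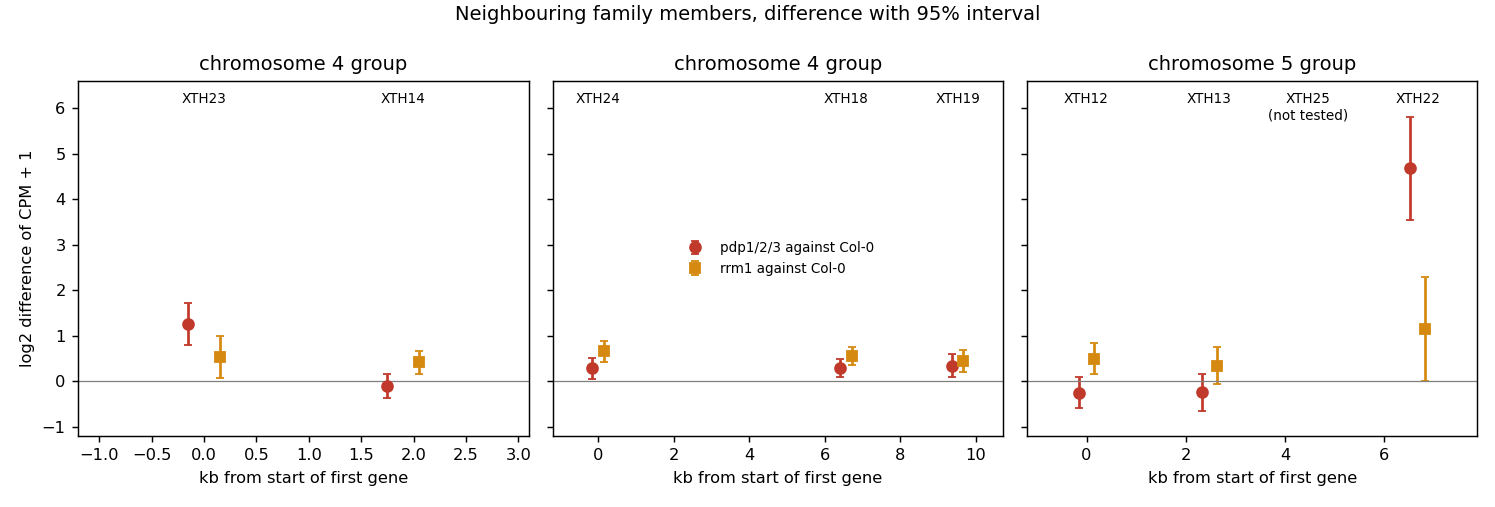
Difference on the scale of log2(CPM + 1) with its 95% interval, in pdp1/2/3 (circles) and rrm1 (squares) against Col-0, for the tested family members in 3 tandem groups (XTH25 was not tested), plotted by distance in kb from the start of the first gene, with the symbols of a gene set slightly apart. XTH22 stands at 4.68 in pdp1/2/3 beside XTH12 and XTH13, both at -0.25, and XTH24, XTH18 and XTH19 lie above 0 in rrm1.

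Genes that make the substrate of the XTH enzymes were examined as a list. Of 13 xyloglucan synthesis genes, 2 were higher and 1 lower in pdp1/2/3, beside 10.8% and 7.42% of all genes, so the counts are near the general share. In pdp1/2/3;rrm1, 2 were higher and 0 lower (2 lower at an unadjusted p below 0.05), beside 10.7% and 7.09% of all genes. Limma called 0 in rrm1, fve or suvh2/9, with 1, 1 and 0 at an unadjusted p below 0.05. Of all genes, 2.74% were higher and 1.29% lower in rrm1, 1.12% and 0.77% in fve, and 0.571% were called in suvh2/9. The median log2 difference of the list was 0.009 in pdp1/2/3, beside -0.006 for all genes. XXT1, which adds the xylose side chains, averaged 65.1 ± 7.59 CPM in pdp1/2/3, against 15.8 CPM in Col-0 (log2 difference 1.97, adjusted p = 7.1e-05). CSLC4, the main synthase of the glucan backbone, averaged 165 ± 5.04 CPM, against 72.0 CPM (1.19, adjusted p = 7.24e-06), while CSLC5 averaged 49.6 ± 1.34 CPM, against 60.1 CPM (-0.27, adjusted p = 0.0225). XXT1 and CSLC4 also rose in pdp1/2/3;rrm1, by 1.64 and 0.71. Of 3 genes whose enzymes trim xyloglucan, the fucosidase gene AXY8 rose in pdp1/2/3 by 0.42 (adjusted p = 0.00454), where 10.8% of all genes were higher. The xylosidase gene XYL1 rose in rrm1 by 0.43 (adjusted p = 0.0136), in pdp1/2/3;rrm1 by 0.42 (0.00393) and in fve by 0.28 (0.0198). Of all genes, 2.74% were higher in rrm1, 10.7% in pdp1/2/3;rrm1 and 1.12% in fve.

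Of 8 genes of primary wall cellulose synthesis, 3 rose in pdp1/2/3, CESA9 by 0.46 (adjusted p = 0.0378), CESA2 by 0.26 (0.0145) and CESA6 by 0.21 (0.0356), where 10.8% of all genes were higher. The median log2 difference of the list was 0.15 there, beside -0.006 for all genes. In pdp1/2/3, CESA9 averaged 2.34 CPM, against 1.43 CPM in Col-0, near the filter of 1 CPM. CESA2 averaged 170 CPM and CESA6 276 CPM in pdp1/2/3. CESA9 was the 1 gene of the list called in pdp1/2/3;rrm1 (0.46, adjusted p = 0.0388), where 10.7% of all genes were higher. Of 9 genes of brassinosteroid synthesis and signalling, the hormone known to induce XTH22, 6 were higher and 0 lower in pdp1/2/3 (7 and 0 at an unadjusted p below 0.05), with a median log2 difference of 0.29, where 10.8% of all genes were higher and 7.42% lower and their median was -0.006. The receptor gene BRI1 rose by 0.64 (adjusted p = 6.49e-05), the transcription factor gene BZR1 by 0.54 (0.000293) and BAS1, whose enzyme inactivates the hormone, by 0.57 (0.003). Of the same list, 3 were higher and 1 was lower in pdp1/2/3;rrm1, beside 10.7% and 7.09% of all genes, the lower one being the synthesis gene BR6OX2 at -0.30 (adjusted p = 0.0314).

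The genes whose levels followed XTH22 most closely over all 14 libraries, after each table was centred on its own mean, were RALFL33 (Pearson r 0.989), XXT1 (0.984), AT2G27500 (0.984), PAR1 (0.982) and GATL9 (0.981), out of 18783 compared. RALFL33 encodes a small signalling peptide, PAR1 a helix-loop-helix protein known from shade responses, and GATL9 a galacturonosyltransferase-like protein. These points share the 4 libraries with the highest XTH22, those of the pdp1/2/3 pair and the pdp1/2/3;rrm1 pair, so the values are a description. PAR1 averaged 62.0 CPM in pdp1/2/3, against 9.44 CPM in Col-0, and RALFL33 averaged 38.8 CPM, against 14.7 CPM. Within the family the closest were XTH27 (0.953), XTH23 (0.927), XTH28 (0.922) and XTH9 (0.898), and the most opposed were XTH31 (-0.954) and XTH7 (-0.896).

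The remaining 11 of the 28 members tested in the second table passed in none of its 3 comparisons with Col-0 (XTH5, XTH8, XTH10, XTH11, XTH12, XTH13, XTH14, XTH15, XTH20, XTH21 and XTH26). Their log2 differences in pdp1/2/3 ran from -0.38 in XTH21 to 0.38 in XTH15. XTH21, a member known from root elongation, read 2.46 and 2.24 CPM in pdp1/2/3;rrm1 and 2.72 and 2.18 CPM in pdp1/2/3, against 3.80 and 3.18 CPM in Col-0. All 4 mutant libraries lay below Col-0, with adjusted p = 0.0604 in pdp1/2/3;rrm1 (log2 difference -0.42) and 0.0853 in pdp1/2/3, and 7.82% of its exon is shared with other places in the genome. XTH18 and XTH19 lay just outside the threshold in pdp1/2/3, at adjusted p = 0.0501 and 0.0512, with log2 differences of 0.29 and 0.34. Just inside it lay XTH6, at adjusted p = 0.0313. XTH8 read 17.6 and 23.5 CPM in pdp1/2/3, against 23.6 and 18.1 CPM in Col-0, and XTH5 read 7.28 and 8.50 CPM, against 5.48 and 8.20 CPM, so both overlapped. XTH10 and XTH11 stayed below 2 CPM in every library of that table.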

How the data were processed

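RNA sequencing of 14 libraries of seedlings in 7 groups was analysed, as 2 tables of 32548 genes. The authors deposited a normalised signal per gene and library. The values have the form of counts adjusted to a common library size and are not raw counts. The submitters' processing notes name HISAT2, featureCounts, edgeR and the build TAIR10, without versions or roles, and no source used here gives the strand or the kit. Each value was divided by the geometric mean of the library totals of its table (21485094 and 19220337 adjusted counts) and multiplied by 1e+06, so that 1 count is 0.0465 or 0.052 CPM. The test covered the genes that reached 1 CPM in 2 or more of a table's libraries (19090 and 19241).

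Values of log2(CPM + 1) were fitted with limma 3.58.1 in R 4.3.3, 1 fit per table over all its groups, with a mean-variance trend. The residual degrees of freedom were 3 and 4, and the prior ones 8.5 and 7.82. P-values are two-sided, Benjamini-Hochberg adjusted over all genes tested and called below 0.05. Shares of all genes are at that adjusted threshold, and none was computed at an unadjusted p below 0.05. The interaction is pdp1/2/3;rrm1 minus pdp1/2/3 minus rrm1 plus Col-0. The code was tested on simulated data. The tables were normalised separately, so no test crosses them. The deviations of same-numbered replicates correlated at 0.00554, 0.144 and 0.197 in the first table and from -0.1 to -0.0107 in the second. Not every pair of groups was above 0.1 in either table and the labels name no shared batch, so the numbers were not taken as pairs.

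Alternatives were pseudocounts of 0.5 and 2, no filter, a filter of 5 CPM, no trend, only the groups compared, upper-quartile scaling, a replicate block, each library left out, and replicate 1 of rrm1 and of pdp1/2/3;rrm1 both left out. Named genes are all members, TCH1 to TCH3, the mutated genes FVE, SUVH2 and SUVH9, up to 3 called genes per list and comparison with the smallest p, and the 5 genes most like XTH22. Members and lists were chosen with earlier results of these data known. Sequences, gene positions and exon lengths are from RefSeq TAIR10.1, matched by gene identifier.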

Additional observations from a re-analysis of the deposited data

Results flagged for a closer look

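XTH9 was singled out because its response differed between the mutants: the log2 difference of pdp1/2/3;rrm1 from Col-0 fell short of the sum of those of pdp1/2/3 and rrm1 by 1.39, an interaction of -1.39 (SE 0.22, 95% interval -1.87 to -0.91, limma adjusted p = 0.0264). It read 64.7 and 95.8 CPM in pdp1/2/3;rrm1, 120.0 and 142 CPM in pdp1/2/3 and 68.8 and 54.4 CPM in rrm1, against 38.9 and 37.3 CPM in Col-0. Col-0 of the first table, which does not enter this fit, read 70.2 and 52.3 CPM. The adjusted p ran from 0.00127 to 0.464 over 15 alternatives and was above the threshold in 7 of them. These were no filter on low values, no mean-variance trend, and Col-0 replicate 3, Col-0 replicate 4, pdp1/2/3 replicate 2, rrm1 replicate 1 or rrm1 replicate 2 left out. With replicate 1 of both rrm1 and pdp1/2/3;rrm1 left out the interaction was -0.95 (adjusted p = 0.0365).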

How the results depend on the processing

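Of 39 calls of members over 9 comparisons, 3 held in every alternative (XTH9, XTH27 and XTH31 in pdp1/2/3 against Col-0) and 0 changed direction. Without the filter on low values all 32548 genes of the second table entered the fit, its prior degrees of freedom fell to 0.671, and the counts of called members were 3 in pdp1/2/3, and 0 in fve, rrm1, pdp1/2/3;rrm1, pdp1/2/3;rrm1 against pdp1/2/3, pdp1/2/3;rrm1 against rrm1, and the interaction. Without the mean-variance trend they were 2 in rrm1, 1 in pdp1/2/3;rrm1 against rrm1, 0 in pdp1/2/3;rrm1 against pdp1/2/3 and 0 in the interaction. Upper-quartile scaling gave 1 in fve against suvh2/9. The replicate block gave 1 in suvh2/9, 2 in fve against suvh2/9, and 1, 2 and 4 in fve, in pdp1/2/3;rrm1 against pdp1/2/3, and lastly in pdp1/2/3;rrm1 against rrm1. Other comparisons with the second Col-0 share no replicate numbers with it. With replicate 1 of both rrm1 and pdp1/2/3;rrm1 left out the counts were 0 in pdp1/2/3;rrm1 against pdp1/2/3 and 2 in the interaction. The causes of these shifts were not tested.

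With each library left out in turn the counts ran from 0 to 1 in fve, 0 to 3 in suvh2/9, 0 to 2 in fve against suvh2/9, 0 to 6 in rrm1, 10 to 16 in pdp1/2/3, 5 to 12 in pdp1/2/3;rrm1, 0 to 6 in pdp1/2/3;rrm1 against pdp1/2/3, 1 to 6 in pdp1/2/3;rrm1 against rrm1 and 0 to 7 in the interaction. A group left with 1 library was assumed to vary like the others. Groups of 2 libraries and a limit of 3 counts (0.14 and 0.156 CPM) bound what can be said of low members.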
